A study of Homo sapiens with 6 samples.

Results

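Chromosome 18 was taken as all 40 kb bins of the chromosome (hg19) that appear in both Hi-C contact maps of the study, together with its topologically associating domains (TADs) in both domain lists. This gave 1516 of the 1952 bins of the chromosome, out of 64803 bins in the whole series. The domain lists held 63 TADs of chromosome 18 in control siRNA and 50 in CTCF siRNA, out of 2864 and 2389 over all chromosomes. Hi-C cuts cross-linked chromatin, joins the ends that lie near each other and counts the read pairs that link 2 places in the genome. The cells were LNCaP, an established line of human prostate cancer, and they received 20 nM of a pool of non-targeting siRNAs (control siRNA, 2 libraries) or 20 nM of a pool of siRNAs against CTCF (CTCF siRNA, 4 libraries), and were collected 144 h later, with a repeat of the transfection in between. Both groups were cut with BglII. The processed maps pool the libraries of a group, so they hold no replicates and no p-value was computed. Every interval below is a 95% interval for counting error or for the spread over positions, and none covers the spread between libraries. The level of CTCF itself cannot be read from contact maps.

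CTCF is a DNA-binding zinc-finger protein that stops the extrusion of chromatin loops by cohesin, and many TAD boundaries carry its motif. TADs are stretches of chromatin that mostly contact themselves and are set off from their neighbours by boundaries. On a larger scale, gene-rich and gene-poor segments of a chromosome each contact segments of their own kind, which gives a checkerboard in a contact map. Each chromosome fills a territory of its own in the nucleus. Chromosome 18 is the textbook example of a gene-poor chromosome that lies near the nuclear edge in many human cells.

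The label of a gene-poor chromosome fits the annotation. Chromosome 18 carried 266 protein-coding genes, or 3.41 genes per Mb, which was the second lowest of the 22 autosomes after chromosome 13 with 2.80. Chromosome 4 carried 3.98 and chromosome 17 carried 14.6 genes per Mb. Its GC content was 39.8%, the sixth lowest.

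In all, 26174669 read pairs were counted in control and 87657896 in CTCF siRNA, of which 179432 and 698946 joined 2 places on chromosome 18. The share of chromosome 18 contacts that stayed within the chromosome was 32.2% in control and 42.5% in CTCF siRNA, and this share was higher in CTCF siRNA on chromosomes 17 and 4 as well. A usable bin of chromosome 18 had a median of 206 contacts within the chromosome in control and 673 in CTCF siRNA. The maps also differed in what the coverage of a bin followed. The correlation of log coverage with GC content over the 1500 usable bins was -0.09 in control and 0.59 in CTCF siRNA, while that with the number of BglII sites was 0.80 and 0.52. These are descriptions over bins that share libraries, and their part in the results below was not tested. No bin below position 9400001 was listed, and from there to 48120000 only positions that chromosome 21 also has were listed. The short arm was thus represented by 32 of its 386 bins, 19 of them usable, against 1484 long arm bins with 1481 usable. The TAD lists did cover the whole chromosome.

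TADs of chromosome 18 were fewer in CTCF siRNA, 50 against 63, a difference of -20.6% that ranked 17 of 22 autosomes from the largest gain (21.4% on chromosome 19) to the largest loss. The difference was -3.1% on chromosome 17 and -35.3% on chromosome 4. The median TAD length in control was 880 kb (680 to 1080 kb). In CTCF siRNA it was 800 kb (680 to 1320 kb), so the medians differed by less than either interval. The mean length went the other way, from 1062 kb to 1255 kb. TADs over 2 Mb numbered 4 in control and 7 in CTCF siRNA, and without TADs over 3 Mb the means were 996 and 977 kb. The lists covered 66.9 and 62.8 Mb of the chromosome. The long arm went from 48 to 36 TADs and the short arm from 15 to 14.

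**Figure D1:**
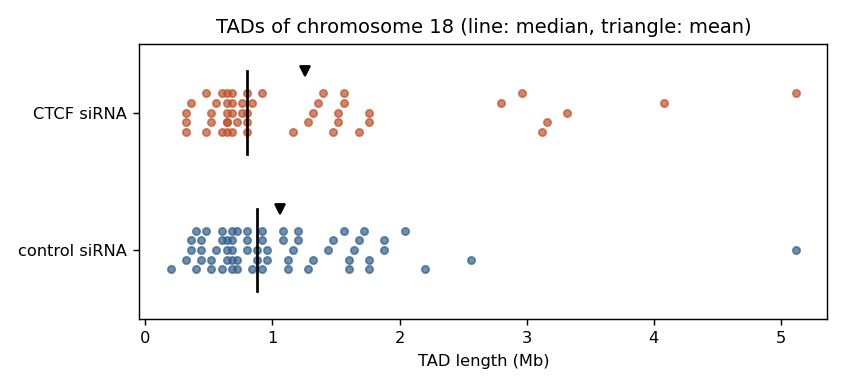
Length in Mb (horizontal axis) of each TAD of chromosome 18 in the control siRNA list (63 points) and the CTCF siRNA list (50 points), with the median as a line and the mean as a triangle. The medians of 880 and 800 kb lie close together, while 7 TADs of CTCF siRNA against 4 of control lie beyond 2 Mb.

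A boundary was the position between facing TAD edges at most 100 kb apart, or a TAD edge on its own. Of the 83 control boundaries of chromosome 18, 35 had no CTCF siRNA boundary within 40 kb and were called lost, a share of 42.2% (32.1 to 52.9%) beside 47.4% of control boundaries over all chromosomes. Of the 74 CTCF siRNA boundaries, 26 had no control boundary within 40 kb and were called gained, a share of 35.1% (25.2 to 46.5%) beside 36.9% over all chromosomes. Both intervals held the value of the whole series, so the fate of boundaries on chromosome 18 was near the background. Chromosome 17 had 37.2% lost and 23.4% gained, and chromosome 4 had 59.7% lost and 40% gained. On chromosome 18, 29 of 64 long arm boundaries and 6 of 19 short arm boundaries were lost.

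A control TAD counted as merged if it fitted, with a tolerance of 40 kb per edge, in a CTCF siRNA TAD with 2 or more control TADs in it. This was so for 16 control TADs, 25.4% (16.3 to 37.3%) beside 31.3% over all chromosomes, held by 6 CTCF siRNA TADs. The converse, subdivision, applied to 6 CTCF siRNA TADs in 3 control TADs, 12.0% (5.6 to 23.8%) beside 13.4% over all chromosomes. Another 15 TADs had both edges within 40 kb of a TAD of the other list. They made up 23.8% of control TADs (14.99 to 35.6%) beside 20.3% over all chromosomes, and 30% of CTCF siRNA TADs (19.1 to 43.8%) beside 24.4%. Of the control TADs, 5 overlapped no CTCF siRNA TAD at all, 7.94% (3.44 to 17.3%) beside 1.61% over all chromosomes. All 5 lay in the stretches from 25.18 to 28.54 Mb and from 57.62 to 59.18 Mb, where the CTCF siRNA list had no TAD. The interval treats them as separate, although neighbours shared a stretch. Each of these TADs overlapped at most 1 protein-coding gene. These TADs lay at 25.18 to 25.78 Mb with CDH2, which encodes N-cadherin, at 26.5 to 27.06 Mb and 27.38 to 28.5 Mb with no protein-coding gene, at 57.62 to 58.22 Mb with the melanocortin receptor gene MC4R, and at 58.3 to 59.18 Mb with the cadherin gene CDH20.

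The CTCF siRNA TAD that held most control TADs ran from 29.46 to 32.78 Mb and held 4 of them, at 29.66 to 30.18, 30.74 to 31.66, 31.66 to 32.38 and 32.54 to 32.74 Mb. The 11 genes it overlapped included ASXL3, which encodes a Polycomb-associated protein, and DTNA, which encodes dystrobrevin alpha. Among control TADs, 3 held 2 CTCF siRNA TADs each. The one at 2.74 to 4.02 Mb overlapped 8 genes, among them TGIF1, the gene of a homeobox repressor, and was split at 3.22 Mb. The longest TAD was the same in both lists, 5.12 Mb from 34.42 to 39.54 Mb, and overlapped 3 genes, KIAA1328, CELF4 and PIK3C3.

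The contacts at boundaries were measured by an insulation value, on a log2 scale, which sets the contacts that cross a bin against those that stay within the 400 kb on either side, each as observed over expected. A lower value means fewer contacts across the bin relative to those within its flanks, so the value also moves with contacts in the flanks. At the lost boundary at chr18:26480001-26520000 it was higher in CTCF siRNA by 0.70. There, 106 contacts crossed in control where 220 were expected, and 321 in CTCF siRNA where 891 were expected. Within the flanks there were 495 where 660 were expected, and 877 where 2547 were expected. The expected number came from the mean of the chromosome at the same distance in the same map. Every boundary with a value lay on the long arm. At the 29 of 35 lost boundaries with a value, the median was -0.76 in control (-0.93 to -0.53) and -0.13 in CTCF siRNA (-0.30 to -0.05). The median change was 0.56 (0.29 to 0.81), and the value was higher in CTCF siRNA at 26 of the 29. At the 34 of 48 maintained boundaries with a value, the median was -1.09 in control (-1.54 to -0.87) and -0.66 in CTCF siRNA (-0.98 to -0.49), a median change of 0.46 (0.14 to 0.62), with a higher value at 28 of the 34. The intervals of the changes at lost and maintained boundaries overlapped over most of their length. In TAD interiors, 749 bins at least 5 bins away from any boundary, the median change was -0.06 (-0.09 to -0.04).

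Gained boundaries had a dip in the control map already. At the 19 of 26 with a value, the median was -0.53 in control (-0.79 to -0.12) and -0.51 in CTCF siRNA (-0.75 to -0.15). The median change was 0.04 (-0.26 to 0.22), with 10 values higher and 9 lower in CTCF siRNA. With flanks of 200 kb the median change at gained boundaries was -0.29. Some gained boundaries lay within the 400 kb flanks of a control boundary, such as 70.42 Mb beside a control TAD edge at 70.34 Mb. Whether the control dip belonged to such neighbours was not tested. TADs were called on the same maps, and each fate was set by both domain lists. The values of both maps at lost, maintained and gained boundaries were thus part of the choice of these positions, and the changes are descriptions. The median change at lost boundaries was 0.40 (0.20 to 0.58) on chromosome 17 and 0.62 (0.55 to 0.67) on chromosome 4, and at maintained boundaries it was 0.15 (0.02 to 0.22) and 0.47 (0.26 to 0.59).

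**Figure D2:**
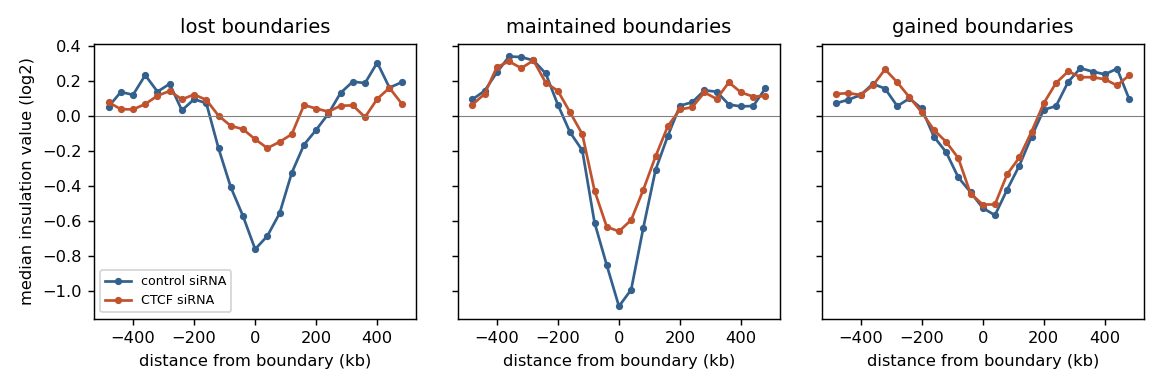
Median insulation value (vertical axis, log2) against distance from the boundary in kb (horizontal axis) on chromosome 18, for lost, maintained and gained boundaries, in control siRNA (blue) and CTCF siRNA (orange). The dip at lost boundaries is shallower in CTCF siRNA (median -0.76 against -0.13 at the boundary), that at maintained boundaries is shallower too but still present (-1.09 against -0.66), and at gained boundaries both maps show a dip of similar depth (-0.53 against -0.51).

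The lost boundary with the largest change lay at chr18:41120001-41160000, between genes and 263 kb from SYT4, a synaptotagmin gene. The control map had 53 contacts across it where 220 were expected and the CTCF siRNA map had 418 where 891 were expected, and the insulation value was -2.04 ± 0.21 (counting SD) and -0.33 ± 0.08. In CTCF siRNA this place lay inside a TAD from 39.58 to 43.66 Mb that held 3 control TADs and included SETBP1, a gene altered in myeloid cancers.

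The next lay at chr18:61600001-61640000 within the clade B serpin cluster, a row of genes for intracellular serine protease inhibitors, and the bin overlapped SERPINB10, HMSD and SERPINB8. There were 87 contacts across it in control and 750 in CTCF siRNA, against 220 and 891 expected, and the insulation values were -1.44 ± 0.16 and -0.11 ± 0.06. The third lay at chr18:20320001-20360000, 18.2 kb from RBBP8, the gene of the DNA repair protein CtIP, with values of -1.33 ± 0.15 and -0.05 ± 0.05. The nearest CTCF siRNA TAD edges lay at 20.5 and 20.54 Mb, where a gained boundary overlapped RBBP8.

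The 3 maintained boundaries with the lowest control values had higher values in CTCF siRNA, but the low control value was the ground for their choice. A rise in the other map can follow from such a choice alone. At chr18:70320001-70360000, 14.2 kb from CBLN2, a cerebellin gene, 41 contacts crossed in control where 220 were expected, and the value was -2.41 ± 0.23. In CTCF siRNA 393 contacts crossed where 891 were expected, and the value was -0.52 ± 0.08. At chr18:39520001-39560000, in PIK3C3, the gene of a phosphatidylinositol kinase of autophagy, the values were -2.35 ± 0.21 and -0.95 ± 0.08. At chr18:43640001-43680000, over PSTPIP2 and ATP5F1A, the values were -1.93 ± 0.16 and -1.22 ± 0.05. All 3 stayed below 0 in both maps.

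The gained boundary with the largest fall lay at chr18:33680001-33720000 over SLC39A6, a zinc transporter gene, and ELP2, an Elongator subunit gene. The control value of -0.04 ± 0.11 stood against -0.96 ± 0.06 in CTCF siRNA. There were 243 contacts across in control where 220 were expected, and 748 in CTCF siRNA where 891 were expected. Within the flanks there were 748 in control where 660 were expected, and 4156 in CTCF siRNA where 2547 were expected. The next lay at chr18:19720001-19760000 over GATA6, a transcription factor gene of endoderm, with values of 0.37 ± 0.09 and -0.15 ± 0.05. The control TAD that held GATA6 ran from 18.46 to 20.34 Mb, and in CTCF siRNA the gene lay at the left edge of a TAD from 19.74 to 20.5 Mb. The third lay at chr18:64040001-64080000, 88.3 kb from CDH19, with values of 0.52 ± 0.11 and 0.00 ± 0.09, so a CTCF siRNA boundary was called there without a dip below the flanks.

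Boundary bins differed in the genes they overlapped. A protein-coding gene overlapped 17 of 35 lost boundary bins, 48.6% (33.0 to 64.4%), which was close to the 48.9% of all 1872 bins with known sequence. It overlapped 36 of 48 maintained bins, 75% (61.2 to 85.1%), and 21 of 26 gained bins, 80.8% (62.1 to 91.5%). The median GC content was 38.8% at lost, 40.8% at maintained and 38.9% at gained boundaries, against 39.0% over all bins.

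The core motif of CTCF was searched on both strands of chromosome 18 in the GRCh37 (hg19) sequence, and 250 matches were found. A match lay within the 120 kb window of the boundary bin and its neighbours at 28 of 48 maintained boundaries, 58.3% (44.3 to 71.2%), at 17 of 35 lost boundaries, 48.6% (33.0 to 64.4%), and at 8 of 26 gained boundaries, 30.8% (16.5 to 49.99%). Of all such windows on the chromosome, 29.7% held a match. A match is a description of the letters and does not show that CTCF bound there. The matches near the 3 lost, 3 maintained and 3 gained boundaries given with coordinates above are printed with 20 bases on each side. They read from 5′ to 3′ on the minus strand, with the core motif in capitals, to show which letters stand near these boundaries. The matches near the SYT4 boundary lay between genes at chr18:41167709-41167720 and chr18:41176265-41176276. That near the serpin boundary lay in an intron of SERPINB8 at chr18:61662214-61662225. That near the maintained PIK3C3 boundary lay between genes at chr18:39486825-39486836, and that near the gained SLC39A6 boundary lay in an intron of that gene at chr18:33702810-33702821, 2.82 kb from the boundary position.
Lost boundary near SYT4, first match: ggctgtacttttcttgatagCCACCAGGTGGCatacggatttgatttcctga
Lost boundary near SYT4, other match: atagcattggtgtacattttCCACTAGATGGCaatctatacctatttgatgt
Lost boundary in the serpin cluster: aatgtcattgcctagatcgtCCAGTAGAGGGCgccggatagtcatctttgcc
Maintained boundary at PIK3C3: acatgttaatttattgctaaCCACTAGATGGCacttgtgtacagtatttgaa
Gained boundary at SLC39A6: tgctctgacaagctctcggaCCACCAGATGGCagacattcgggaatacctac
No match lay within the windows of the lost boundary near RBBP8 and of the named boundaries near CBLN2, CDH19, GATA6 and PSTPIP2.

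A list of 43 genes on chromosome 18, of which 16 were single loci and the others belonged to gene clusters or families, was followed from one domain list to the other. Of these genes, 37 had their start in a TAD in control and 37 in CTCF siRNA, and 34 had it in a TAD in both. The share over all genes of the chromosome was not computed. Of the 34, 17 started in a longer TAD in CTCF siRNA, 14 in a shorter one and 3 in one of the same length. The 10 clade B serpin genes were among the 17. In control, 9 of the 10 clade B serpin genes started in a TAD from 61.14 to 61.62 Mb, and SERPINB8 started in the next one, from 61.62 to 64.18 Mb. In CTCF siRNA all 10 started in 1 TAD from 61.1 to 64.06 Mb, together with the cadherin gene CDH7. The 7 desmosomal cadherin genes, which encode the adhesion proteins of desmosomes (DSC1 to DSC3 and DSG1 to DSG4), started in a TAD from 28.54 to 29.38 Mb in control and in one from 28.54 to 29.1 Mb in CTCF siRNA, whose right edge lay within DSG2. DCC, a netrin receptor gene, started in a TAD of 1.08 Mb in control and of 3.12 Mb in CTCF siRNA. BCL2, a survival gene, stayed in a TAD of 1.20 and 1.16 Mb, and MBP, the myelin basic protein gene, in the same TAD of 0.80 Mb.

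The checkerboard of chromosome 18 was measured in bins of 500 kb on iteratively balanced counts. Bins were put in a GC-rich or a GC-poor class by the sign of the first eigenvector, computed on correlations between bins of observed over expected contacts, turned so that positive values go with higher GC. Of 121 bins, 63 were GC-rich and 58 GC-poor in control, and the classes held 5.05 and 1.45 gene starts per Mb. In CTCF siRNA the numbers of bins were again 63 and 58, with 4.76 and 1.76 gene starts per Mb. The correlation of the eigenvector with GC content was 0.57 in control and 0.64 in CTCF siRNA, and 85.1% of bins had the same class in both maps, with a correlation of 0.74 between the eigenvectors over 121 bins. Over the 22 autosomes the median share of bins of the same class was 88.4% and the median correlation was 0.92, and chromosome 18 ranked 16 and 20 from the highest. The class names follow the sign of the eigenvector. In control, GC content ran from 35.0 to 51.2% over GC-rich bins and from 34.2 to 45.7% over GC-poor bins. The longest run in both maps was of the GC-rich class, 9.5 Mb from 39.0 to 48.5 Mb with 43 gene starts. A run of the GC-poor class from 34.5 to 39.0 Mb with 1 gene start was also the same in both. The first run held a bin of 36.0% GC and the other a bin of 45.3% GC.

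The strength of the checkerboard was the log2 of the mean observed over expected within classes, over that between classes, at distances of 2 Mb and more. With the classes of each map it was 0.57 ± 0.02 (counting SE) in control and 0.34 ± 0.01 in CTCF siRNA, a difference of -0.23 (-0.27 to -0.20). In control, GC-poor pairs had a mean of 1.34 of the expected contacts, GC-rich pairs 1.09 and mixed pairs 0.81. In CTCF siRNA these means were 1.15, 1.096 and 0.89, so the largest difference was among GC-poor pairs. The same order held in each distance class from 2 to 10 Mb to 20 to 40 Mb. At 40 to 80 Mb it held in control, while in CTCF siRNA the order turned, with GC-rich pairs at 1.18 and GC-poor pairs at 1.16, and the strength was 0.66 in control and 0.46 in CTCF siRNA. Among the 22 autosomes, the strength of chromosome 18 ranked 6 from the highest in control and 20 in CTCF siRNA, and its difference of -0.23 was the lowest of the 22 with classes fitted to each map.

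This difference depended on the depth and on how the classes were made. With the CTCF siRNA map thinned at random to the 179432 contacts of the control, its strength was 0.52 and the difference was -0.049. The eigenvector is fitted to the same contacts as the strength. Where the classes were set by GC content alone, above or below the median of the chromosome, the strength was 0.30 ± 0.02 in control and 0.26 ± 0.01 in CTCF siRNA, a difference of -0.035 ± 0.04 (95%), which included 0. After thinning, with these GC classes, the difference was 0.0027. In bins of 1000 kb the difference on GC classes was 0.040 ± 0.036 (95%), of opposite sign, and without balancing it was 0.0025. On the GC classes, chromosome 18 ranked 9 of 22 autosomes in control and 11 of 22 in CTCF siRNA, over a range of 0.10 to 0.74 and of 0.13 to 0.59, and its difference ranked 14 of 22 from the highest. With the eigenvector classes of the control map in both maps the difference was -0.22, and with those of the CTCF siRNA map in both it was -0.040. With the eigenvector classes of each map and without balancing, GC-rich pairs had 1.40 of the expected contacts in CTCF siRNA and GC-poor pairs 0.85, against 1.09 and 1.31 in control, beside the correlations of coverage with GC given above.

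**Figure D3:**
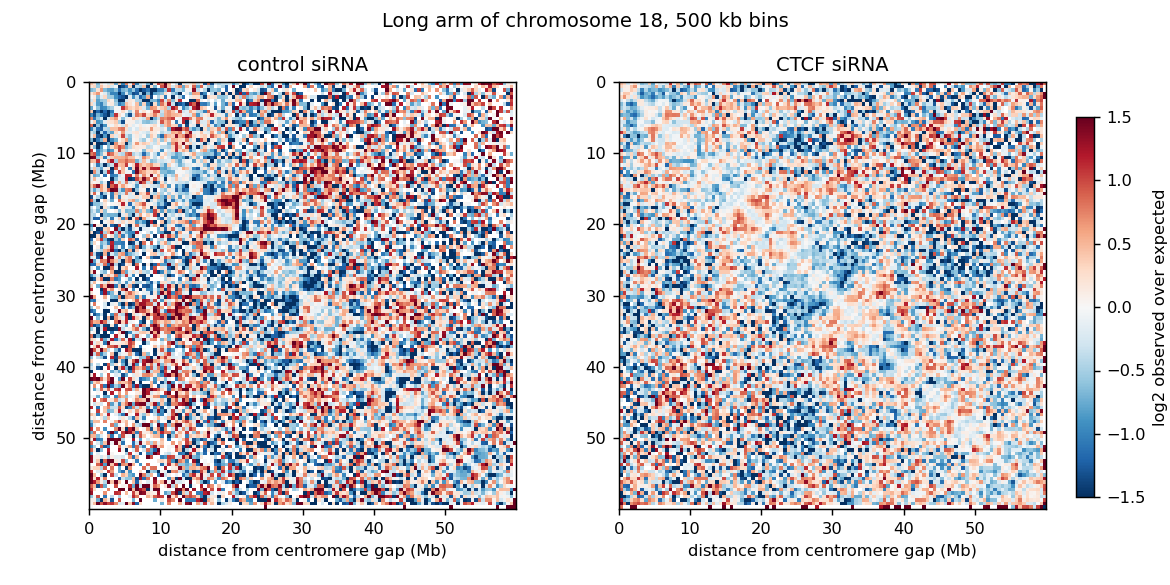
Observed over expected contacts (colour, log2) between 500 kb bins of the long arm of chromosome 18 in control siRNA and CTCF siRNA, with distance from the centromere gap in Mb on both axes. Many blocks of red and blue lie at the same places in both maps, and 85.1% of the 121 bins of the chromosome had the same class in both. The control map is more scattered with 179432 against 698946 contacts, and white cells hold no contact or a value near the expected one. The last bin is incomplete.

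Classes differed between the maps in 18 of 121 bins, 9 in each direction, beside 14.2% of bins over all autosomes. That share includes chromosomes 4 and 21, where 58.6% and 37.3% of bins kept their class and the control strength was below 0, at -0.03 and -0.10. Runs of neighbouring bins that changed class the same way were ranked by the change of their mean eigenvector. The largest was at 57.5 to 58.0 Mb, with PMAIP1, the gene of the apoptosis protein NOXA. It went from -1.41 in control to 0.70 in CTCF siRNA. The next was at 51.0 to 51.5 Mb, which overlaps the end of DCC, from -1.53 to 0.46, while the bin with the start of DCC was GC-poor in both maps, at -1.45 and -1.64. The third was a run of 1 Mb from 58.5 to 59.5 Mb, which overlaps CDH20 and RNF152, from -1.34 to 0.44. All 3 went from GC-poor to GC-rich, with GC contents of 38.9, 37.3 and 38.5%. The 5 desmosomal cadherin genes that start at 28.5 to 29.0 Mb went the other way, from 0.88 to -0.17, while the 10 serpin genes and the 3 SMAD genes of TGF-beta signalling kept their class. No error over libraries can be given for these bins and runs.

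Contacts on chromosome 18 fell with distance in both maps, and long distances held a smaller share in CTCF siRNA. Contacts over 2 Mb made up 15.05% of all contacts between usable bins of the chromosome in control (14.9 to 15.2%) and 12.2% in CTCF siRNA (12.1 to 12.2%), a difference of -2.89 percentage points (-3.07 to -2.70). The share was lower on all 22 autosomes, with differences from -5.87 to -0.80 points, and chromosome 18 ranked 8 of 22 from the smallest difference to the largest. The share between 0.5 and 1 Mb was 10.4% in control and 11.4% in CTCF siRNA, a ratio of 1.096 (1.08 to 1.11). Between 20 and 40 Mb it was 3.20% and 2.28%, a ratio of 0.71 (0.69 to 0.73). The slope of log contacts on log distance from 0.5 to 5 Mb was -1.64 ± 0.04 (SE of the fit) in control and -1.79 ± 0.05 in CTCF siRNA, a difference of -0.15 (-0.27 to -0.04), and the slope was more negative in CTCF siRNA on all 22 autosomes. From 0.2 to 2 Mb the slopes were -1.30 and -1.27, so the sign of the difference turned over shorter distances. The share of trans contacts differed between the maps too, and these differences cannot be told apart from differences between libraries.

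**Figure D4:**
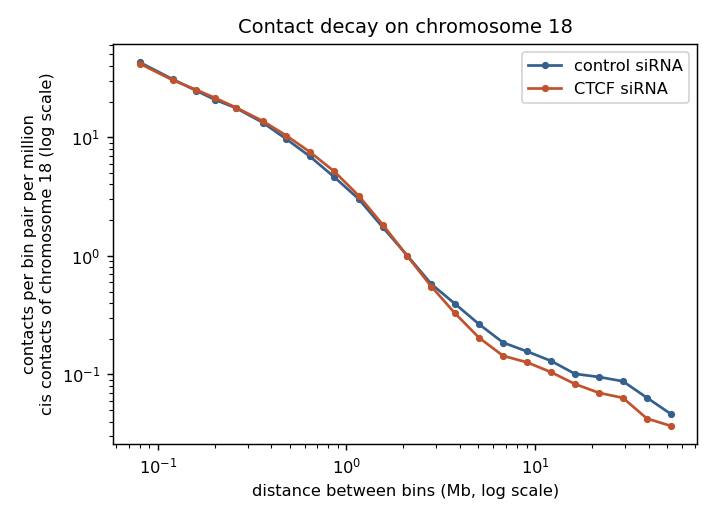
Contacts per pair of bins scaled to the contacts within chromosome 18 (vertical axis, log scale) against distance between the bins in Mb (horizontal axis, log scale), in control siRNA (blue) and CTCF siRNA (orange). The curves cross between 1 and 5 Mb, with CTCF siRNA above at 0.5 to 1 Mb (ratio of shares 1.096) and below at 20 to 40 Mb (ratio 0.71).

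Contacts between the arms were few on chromosome 18 in both maps and rested on 19 short arm bins. There were 219 of them in control, 0.122% of contacts within the chromosome (0.107 to 0.139%), and 782 in CTCF siRNA, 0.112% (0.104 to 0.120%). Against the mean of pairs within an arm at the same distance, observed over expected was 0.55 in control (0.48 to 0.63) and 0.66 in CTCF siRNA (0.61 to 0.71), a ratio of 1.20 (1.02 to 1.40). The short arm bins had fewer contacts within the chromosome than those of the long arm. The medians were 87 against 207 in control and 434 against 680 in CTCF siRNA. Contacts with other chromosomes differed less, with medians of 228 against 249 in control and 582 against 622 in CTCF siRNA. Balancing evens out contacts within the chromosome only, and after it observed over expected was 0.85 and 0.98 and the ratio 1.15. As deposited, the values gave a ratio of 1.06. The ratio of chromosome 18 was the highest of 17 autosomes with a value, whose range was 0.75 to 1.20, with 1.02 on chromosome 17 and 1.004 on chromosome 4, where 179 and 875 short arm bins were usable.

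Bins less than 10 Mb apart across the centromere held 22 contacts in control, 0.57 of the expected number (0.36 to 0.86), and 124 in CTCF siRNA, 1.04 (0.86 to 1.24). From 10 to 20 Mb the values were 0.51 (0.38 to 0.68) and 0.65 (0.56 to 0.75), from 20 to 40 Mb they were 0.61 and 0.65, and from 40 to 70 Mb they were 0.49 (0.36 to 0.66) and 0.51 (0.43 to 0.61). The intervals of the maps touched or overlapped in each of these classes, and whether the difference varied with distance was not tested. The 17 usable bins from 9.48 to 11.2 Mb met the GC-rich class of the long arm at 0.67 of the expected number in control (0.55 to 0.81) and at 0.92 in CTCF siRNA (0.83 to 1.01), and met the GC-poor class at 0.40 (0.31 to 0.52) and 0.39 (0.33 to 0.44). The other 2 usable bins, at 14.76 to 14.96 Mb, went the other way in control, with the GC-rich class at 0.34 (0.16 to 0.65) and the GC-poor class at 0.93 (0.56 to 1.45) from 9 and 19 contacts, and had 0.99 (0.77 to 1.24) and 0.51 (0.35 to 0.72) in CTCF siRNA. These class values came from counts without balancing, and coverage followed GC content in CTCF siRNA, with r of 0.59 against -0.09 in control. Its part in them was not tested. No pair of 500 kb bins of opposite arms reached 20 contacts in both maps. The highest count was 4 in control and 14 in CTCF siRNA, so at this depth no single place of contact between the arms could be named.

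The partner chromosomes of chromosome 18 were compared with the numbers expected if each pair of chromosomes met in proportion to its members' total trans contacts, over the other 21 autosomes and the X chromosome. Chromosome 21 came first in both maps, with 6482 contacts in control, 1.17 of the expected number (1.14 to 1.20), and 17022 in CTCF siRNA, 1.20 (1.18 to 1.22). The next in control were chromosome 13, at 1.05 (1.02 to 1.07), and chromosome 20, at 1.04 (1.02 to 1.07), whose intervals overlapped. In CTCF siRNA they were chromosome 20, at 1.08 (1.07 to 1.099), and chromosome 22, at 1.05 (1.03 to 1.07). The interval of chromosome 22 overlapped those of chromosomes 20, 17, 13, 19 and 14. The lowest were chromosomes 6 and 1, at 0.96 and 0.97 in control and 0.96 and 0.96 in CTCF siRNA, whose intervals overlapped as well in both maps. All 22 values but that of chromosome 21 lay between 0.96 and 1.08.

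The partner values of the maps correlated with r = 0.94 over 22 chromosomes (Spearman 0.85), and this is a description over chromosomes that share libraries. With the number expected from total trans contacts, longer partners had lower values, with r of -0.54 in control and -0.68 in CTCF siRNA. In the same setting r with gene density was -0.17 and 0.07. The largest ratio of CTCF siRNA to control was 1.04 (1.01 to 1.08) for chromosome 19. Seen from chromosome 21, chromosome 18 was the second partner in control after chromosome 20, and the fifth in CTCF siRNA at 1.20, after chromosomes 20, 22, 19 and 17. Contacts of chromosome 18 with chromosome 21 at the same position on both made up 0.09% of the pair's contacts in each map. The order of the other partners depended on how the expected number was made. Where it came from the numbers of bins, chromosome 21 came second in control and first in CTCF siRNA, but chromosome 13 ranked 21 of 22 and chromosome 22 ranked 20 in both maps, while chromosome 1 ranked 3. Chromosome 20 ranked 12 in control and 5 in CTCF siRNA in that setting, and chromosome 6 ranked 14 and 15. There the long chromosome 1 stood at 0.75 in control and the short chromosome 22 at 0.41, while the short chromosome 21 stood at 0.80. The relation to partner length was not computed for that setting.

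At the depth of these maps no single place of contact with another chromosome could be named. Of 137374 pairs of a 1 Mb bin of chromosome 18 and one of another chromosome with contacts in both maps, none reached 20 contacts in control and 32 did in CTCF siRNA. The highest count was 13 in control and 26 in CTCF siRNA, where the median expected number was 2.55 and 6.28, so the depth of the control map fixed that no pair passed in both. Among GC-rich bins of chromosome 18, trans contacts made up 50.5% of all contacts counted per bin in control and 35.6% in CTCF siRNA, and among GC-poor bins 51.7% and 47.0%. The share of trans contacts that went to chromosomes 20, 21 and 22 was 4.51% for GC-rich bins (4.42 to 4.61%) and 4.29% for GC-poor bins (4.19 to 4.38%) in control, and 5.18% (5.12 to 5.25%) and 4.397% (4.34 to 4.46%) in CTCF siRNA. The gap between the classes was thus larger in the CTCF siRNA map, in which coverage also followed GC content.

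**Figure D5:**
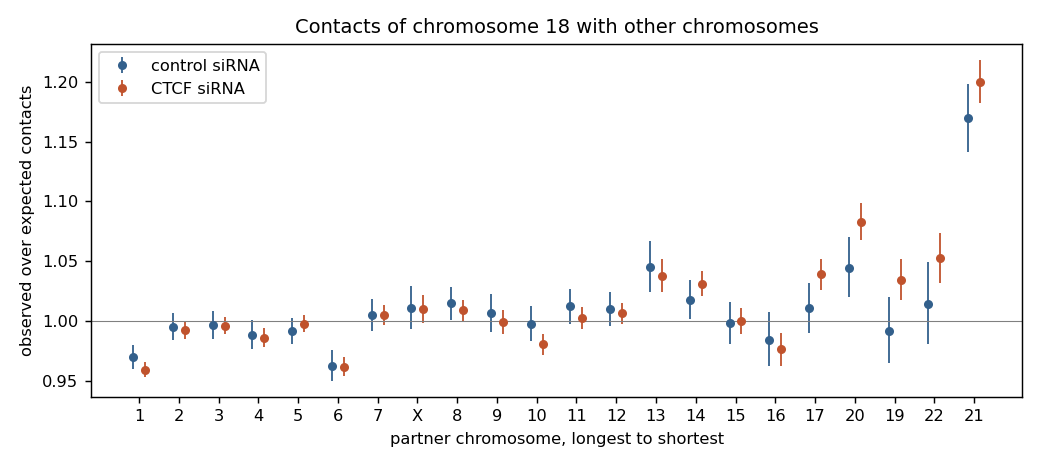
Observed over expected contacts of chromosome 18 (vertical axis) with each of 22 partner chromosomes, ordered from longest to shortest (horizontal axis), in control siRNA (blue) and CTCF siRNA (orange), with Poisson 95% intervals. Chromosome 21 stands highest in both maps, at 1.17 and 1.20, and the other partners lie between 0.96 and 1.08.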

How the data were processed

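Per the labels, 2 libraries had control siRNA and 4 had CTCF siRNA, and groups follow these labels. The authors used BglII, aligned to hg19 with Bowtie 1.1.0 through HiCUP, tagged duplicates with Picard 1.121, pooled each group into 1 map of 40 kb bins, and called TADs with domaincaller, which applies a hidden Markov model to a directionality index. What separates the CTCF siRNA libraries of equal number is not given in the sources used here.

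The deposited contact values are read-pair counts, not scaled for depth. From position 9400001 to 48120000 they carry a factor for each bin, equal at a position on every chromosome, although the comparisons had assumed plain counts. The factors were bounded from the values, and division gave whole counts for 100% of values whose step (the value of 1 read pair) was over 4 times the tolerance (random remainders: 2.28% and 2.40%). The tolerance was the rounding in the second decimal plus 0.05% of the value, a median of 1.03% of a step in control and 1.05% in CTCF siRNA. Up to 48120000 only positions that chromosome 21 also has are listed.

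Usable bins had at least 10% of the chromosome's median cis count in both maps, and insulation needed 50% usable pairs. By rule, the text names 3 lost, 3 gained and 3 maintained boundaries (by change, or by control value, where 20 or more contacts were expected across). It also names the TADs holding most others, the longest TADs and the 3 class runs with the largest change. Bin pairs needed 20 or more contacts per map. These members and lists were chosen with earlier results of these data known. Wilson and Poisson intervals cover counting error only, since they use the counts of 1 pooled map per condition. The read pairs carry no molecular identifiers. Order-statistic intervals of medians cover the spread over TADs or positions. Python 3.11.15, numpy 2.4.6, scipy 1.17.1 and GENCODE on GRCh37 were used, and functions were tested on simulated data. Alternatives changed flanks, bin sizes, balancing, depth, distances, tolerances and bin filters.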

Additional observations from a re-analysis of the deposited data

How the results depend on the processing

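No paired analysis was possible because the processed maps used here are pooled, 1 per siRNA, and for the same reason no library was left out. With 1 map per condition the limits are depth (179432 against 698946 contacts within chromosome 18), the coverage by GC content of the CTCF siRNA map, and the 19 usable short arm bins. The cause of the differences below was not tested. The difference in TAD number was -13, and -6 among TADs outside the positions that carry a factor. With boundaries shared only at 0 kb, 56.6% of control boundaries were lost and 51.4% of CTCF siRNA boundaries gained, and with edges joined within 400 kb 22.8% were gained. The median insulation change at gained boundaries was -0.29 with flanks of 200 kb, and that in TAD interiors was -0.029 with flanks of 200 kb and -0.098 on balanced counts. The difference in checkerboard strength was -0.39 in bins of 1000 kb, -0.072 without balancing, -0.049 with the CTCF siRNA map thinned, and, in alternatives chosen after seeing the data, -0.035 with classes from GC content, 0.0027 with these classes after thinning, 0.040 with them in bins of 1000 kb and 0.0025 with them without balancing, where the sign turned in all 3, -0.015 with them in bins of 250 kb, -0.035 on deposited values, -0.024 on the long arm only, and -0.040 with the classes of the CTCF siRNA map in both maps, against -0.22 with those of the control map in both. The correlation of eigenvectors was 0.48 in bins of 1000 kb, 0.87 without balancing and 0.67 after thinning. The difference in the share over 2 Mb was -3.41 points without contacts within a bin, and over 10 Mb it was -1.69. The decay exponent difference was 0.025 at 0.2 to 2 Mb, of opposite sign. Under the expectation from numbers of bins the ranks of partner chromosomes changed, as given above. The mean TAD length was 1062 kb in control and 1255 kb in CTCF siRNA, but 996 and 977 kb without TADs over 3 Mb, where the sign turned. The sign of the other differences held under the other alternatives run.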
